A study of Mus musculus with 12 samples.

Results

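Aminoacyl-tRNA synthetases were examined in U2OS cells, a human osteosarcoma line, after knockdown of the splicing factor SRSF1 and after overexpression of the long non-coding RNA LINC01134. The genes were all protein-coding genes of the deposited expression table whose full name contains the words "tRNA synthetase", which selected 41 of 19951 protein-coding genes and of 58735 genes in all. Of these, 20 code for cytosolic enzymes and 17 for mitochondrial enzymes. The other 4 matched the words and were counted in neither set. AIMP1 and AIMP2 are scaffold proteins of the cytosolic multisynthetase complex, and AARSD1 is related to the editing domain of alanyl-tRNA synthetase. TARSL2 is a second threonyl-tRNA synthetase-like protein.

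Aminoacyl-tRNA synthetases join each amino acid to its matching tRNA, the step that fixes the genetic code before the tRNA reaches the ribosome. They fall into 2 classes with unrelated catalytic folds, and most animals keep a separate nuclear-encoded set for translation inside mitochondria. In the cytosol, 8 of the enzyme genes listed here code for members of the multisynthetase complex, which is held together by AIMP1, AIMP2 and EEF1E1. GARS and KARS each code for both a cytosolic and a mitochondrial form of the enzyme, and EPRS carries the glutamyl and the prolyl activity in a single chain. Many cytosolic synthetase genes are known targets of ATF4, the transcription factor of the amino acid response.

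The 4 groups held 3 libraries each. Blank cells were untreated U2OS cells, siSRSF1-2 and siSRSF1-3 cells had received either of a pair of small interfering RNAs against SRSF1, and OE-LINC01134 cells overexpressed LINC01134. No library of cells given a control siRNA or an empty vector was analysed here, so each treatment was compared with blank cells and an effect of transfection or vector cannot be told apart from that of the target. The labels give the organism as mouse, while the cell line and all gene identifiers are human, and the samples were treated as human. Nothing in the labels says that the libraries of a group came from separate cultures, so each p-value measures only the spread between these libraries.

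Each library held between 26237763 and 32954539 reads on genes. Levels are given as FPKM, which is fragments per kilobase of gene length, scaled for the depth of the library, and fold changes on the scale of log2(FPKM + 0.1). In siSRSF1-3 library 1 the FPKM of all genes summed to 611084 and in library 2 to 410612, against 281051 to 324607 in the other 10 libraries. Over the 17538 genes tested, blank library 1 lay closer to OE-LINC01134 library 2 (SD of the log2 difference 0.658) than to the other blank libraries (0.747 and 0.757), and siSRSF1-3 library 3 lay closer to siSRSF1-2 library 1 (0.578) than to the nearest library of its own group (0.930). Of the mesenchymal markers, VIM was at 68.7 to 248 FPKM in the 12 libraries and FN1 at 11.99 to 80.9, while COL1A2 did not exceed 0.0131. Markers of blood, liver and endothelium stayed at or below 0.368 FPKM, with CD3E at 0 throughout. Of the epithelial markers, KRT18 was at 42.8 to 163 FPKM, EPCAM at 0.918 to 2.43 and CDH1 at 0.345 to 0.862. VIM was at 77.3 to 79.1 FPKM with siSRSF1-2, against 181 to 244 in blank cells. The other groups were split, at 68.7, 248 and 69.4 with LINC01134 and at 183, 171 and 79.4 with siSRSF1-3. The part of VIM in the results was not tested. In these bulk libraries fewer cells of one state and less RNA per cell cannot be told apart.

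Both siRNA groups were checked on their target. SRSF1 (ENSG00000136450) was at 35.9, 19.8 and 20.5 FPKM in the blank libraries, at 7.09, 7.46 and 7.41 with siSRSF1-2 and at 3.33, 6.81 and 7.90 with siSRSF1-3. Neither siRNA group overlapped the blank group. The log2 fold change was -1.72 for siSRSF1-2 (limma adjusted p = 0.0050) and -2.09 for siSRSF1-3 (adjusted p = 0.0518), and the exact two-sided permutation test gave p = 0.1 for each, the smallest value that 3 against 3 libraries allow. LINC01134 was at 878 to 1279 FPKM in the overexpressing libraries and at 0.497 to 0.791 FPKM in blank cells.

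In blank cells the cytosolic enzymes were abundant transcripts and the mitochondrial enzymes moderate ones. The median level was 42.6 FPKM for the 20 cytosolic genes and 6.29 FPKM for the 17 mitochondrial genes, beside 6.31 FPKM for the 12270 protein-coding genes tested. The median cytosolic gene stood at the 95.5 percentile of all protein-coding genes and the median mitochondrial gene at the 69.2 percentile.

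The most abundant cytosolic transcripts were those of SARS, GARS and AARS, which charge serine, glycine and alanine. SARS lies on chromosome 1 at 109213918 to 109238169 (plus strand) in the coordinates of the deposited table, whose genome build is not named in the sources used here. It was at 99.7, 154 and 160.2 FPKM, GARS at 113, 135 and 144 FPKM and AARS at 61.6, 79.0 and 79.6 FPKM. SARS and GARS could not be ordered, because their ranges overlapped, whereas the lowest GARS library lay above the highest AARS library. At the other end were CARS (19.2 ± 1.64, SD, n = 3), LARS (19.2 ± 2.08) and HARS (7.46 ± 1.12), for cysteine, leucine and histidine. HARS lay below every other cytosolic enzyme in all blank libraries.

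Among the mitochondrial enzymes IARS2, for isoleucine, on chromosome 1 at 220094102 to 220148041 (plus strand), was highest at 33.2, 29.7 and 30.1 FPKM, and did not overlap YARS2 (13.8 ± 3.70) or NARS2 (11.7 ± 0.888). The lowest were WARS2 (3.57 ± 0.505), FARS2 (2.20 ± 0.475) and SARS2 (0.733 ± 0.290), the last with 51 to 94 reads per library. Of the 19 steps between neighbours in the cytosolic order, 5 separated without overlap over the blank libraries, and of the 16 steps in the mitochondrial order, 4 did. The ranges of most neighbours therefore overlapped. This rule does not use that both genes were measured in the same libraries. MARS (50.8, 46.5 and 47.3 FPKM), for example, lay above its neighbour QARS (47.2, 40.0 and 41.1) in each blank library, though their ranges overlapped.

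**Figure D1:**
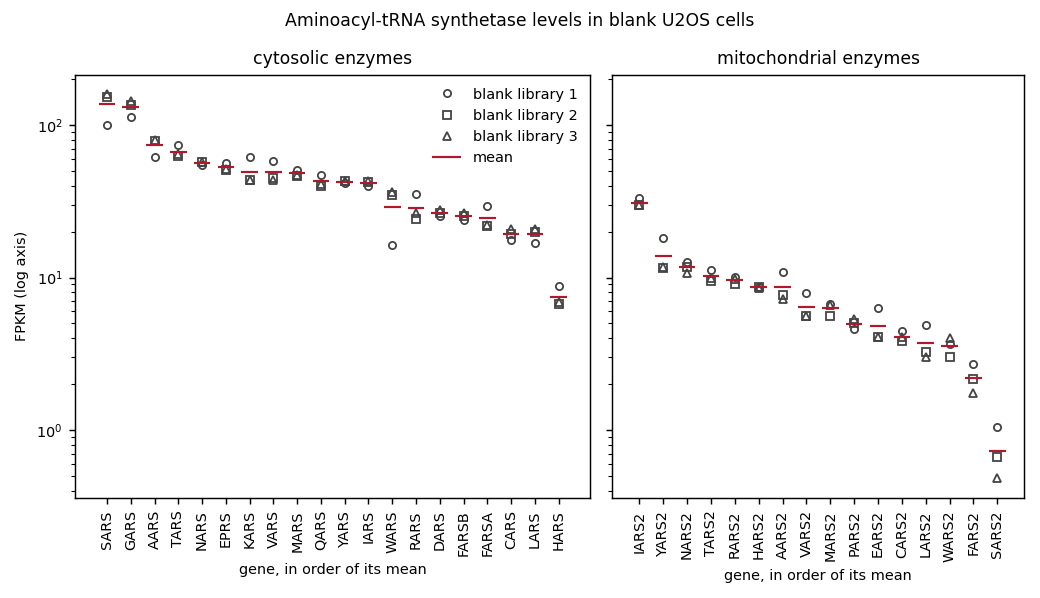
FPKM (log axis) of the cytosolic (left) and 16 of the mitochondrial (right) synthetase genes in the 3 blank libraries, in order of the mean (line). The medians of the full lists were 42.6 FPKM for cytosolic and 6.29 FPKM for mitochondrial enzymes, and the 3 libraries are marked separately so that the low WARS and SARS values of blank library 1 can be seen.

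Blank library 1 stood apart for several members. WARS, which charges tryptophan, was at 16.3 FPKM there and at 34.9 and 36.2 in the other blank libraries, and it was at 22.1 in OE-LINC01134 library 2 against 41.5 and 41.6 in libraries 1 and 3 of that group. Of the 17 mitochondrial enzymes, 15 lay above their blank mean in blank library 1, against 3 and 4 in libraries 2 and 3. KRT18 and SPARC were also highest among the blank libraries in library 1 (126 and 111 FPKM, against 68.7 to 71.4 and 51.9 to 55.0). The part of this library in the results below was measured by leaving it out.

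The cytosolic enzyme was the higher one for nearly every amino acid. Of 18 pairs of a cytosolic and a mitochondrial gene for the same amino acid, the cytosolic gene was higher in all blank libraries in 17, with a median ratio of 7.12. The widest was SARS over SARS2, with a mean ratio of 219 ± 119 (SD, n = 3) that rests on the low counts of SARS2. IARS over IARS2 was among the narrowest at 1.36 ± 0.129. HARS over HARS2 was the exception at 0.864 ± 0.130, with libraries from 0.774 to 1.01, and the genes lie head to head on chromosome 5 with an overlap of 437 bases.

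Some members share bases with other genes, and the sources do not say whether reads were counted by strand. MARS overlaps DDIT3, which lies on the opposite strand, by 982 bases, SARS2 overlaps the more abundant MRPS12 by 349 bases, AIMP2 overlaps EIF2AK1 by 1591 bases and YARS2 lies with 18161 bases of its span in DNM1L. WARS2 shares 276 bases with an antisense transcript, YARS shares 1387 bases with the gene of S100P binding protein and AIMP1 shares 5952 bases with TBCK, all on the opposite strand. How reads in these stretches were assigned is not known, so the values of these genes are less certain. Pseudogenes carrying the same words numbered 18, of which 3 had a mean of at least 0.5 FPKM and none exceeded 1.99.

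With siSRSF1-2, the cytosolic enzymes that changed mostly rose by small amounts. IARS, YARS, NARS, LARS and AARS, for isoleucine, tyrosine, asparagine, leucine and alanine, were higher than in blank cells, and FARSA, the catalytic subunit of phenylalanyl-tRNA synthetase, was lower. Of the mitochondrial enzymes IARS2 and MARS2 were higher and WARS2 lower. In total 9 of the 41 genes passed an adjusted p under 0.05, of which 7 were higher and 2 lower, and all were tested. Of all genes tested 26.8% passed, 14% higher and 12.8% lower, so the share among the synthetases was near the background. At an unadjusted p under 0.05, 11 were higher and 5 lower, beside 20.6% and 19.7% of all genes. The groups did not overlap for 12 higher and 5 lower genes, beside 25.3% and 24.2% of all genes. No member passed with an absolute log2 fold change over 1, beside 2.22% of all genes higher and 2.73% lower.

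IARS was at 40.1, 42.4 and 43.1 FPKM in blank cells and at 52.4, 53.9 and 52.9 with siSRSF1-2, and the groups did not overlap. Its log2 fold change was 0.34 (SE 0.0541, adjusted p = 0.0080). YARS was at 41.5, 42.7 and 43.1 FPKM in blank cells and at 55.7, 53.2 and 51.9 with siSRSF1-2, a log2 fold change of 0.34 (adjusted p = 0.0085). All siSRSF1-2 libraries lay above all blank libraries for YARS too.

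NARS changed from 54.4, 57.3 and 57.5 FPKM to 70.1, 70.9 and 69.5, a log2 fold change of 0.32 (adjusted p = 0.0086). LARS changed by 0.36 (adjusted p = 0.0319) and AARS by 0.42 (adjusted p = 0.0360). FARSA was at 29.4, 21.7 and 22.0 FPKM in blank cells and at 16.6, 15.9 and 16.2 with siSRSF1-2. Its log2 fold change was -0.57 (SE 0.126, adjusted p = 0.0221), while FARSB, the other subunit of the same enzyme, differed by -0.03 (adjusted p = 0.771) with overlapping groups.

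WARS2 was at 3.64, 3.03 and 4.03 FPKM in blank cells and at 2.44, 2.12 and 2.24 with siSRSF1-2, a log2 fold change of -0.62 (SE 0.129, adjusted p = 0.0178). IARS2 changed by 0.27 (adjusted p = 0.0352) and MARS2 by 0.35 (adjusted p = 0.0403). RARS2, for arginine, differed by -0.25 and did not pass (adjusted p = 0.0818). WARS had the highest log2 fold change of the cytosolic enzymes, 0.65, and did not pass, with 16.3 to 36.2 FPKM in blank cells. The median log2 fold change was 0.10 over the cytosolic and -0.04 over the mitochondrial enzymes, beside 0.02 over all genes tested.

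Leaving out blank library 1 raised the number called from 9 to 22 of 41, 18 higher and 4 lower, beside 52.2% of all genes tested. All 9 genes of the full comparison were among the 22. SARS had missed the threshold with all libraries (log2 fold change 0.58, adjusted p = 0.0617). Without blank library 1 it passed at 0.36 (adjusted p = 0.00038), and WARS at 0.27 (adjusted p = 0.00069). Both genes were low in blank library 1, so leaving it out narrowed their blank spread by itself. These p-values therefore add no support for a change in either gene. Leaving out siSRSF1-2 library 2 instead left 0 called, library 3 left 2, and library 1 left 3, beside 10.7%, 10.4% and 12.1% of all genes tested. A single fit over all 4 groups, which shares one estimate of the spread, also left 0 of the 41 called, beside 3.76% of all genes. The voom fit on reads called 11, 8 higher and 3 lower, beside 29.1%.

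By class, 5 of 18 class I enzymes rose and 1 fell, and 2 of 18 class II enzymes rose and 1 fell, beside 14% higher and 12.8% lower of all genes tested. A difference between the classes was not tested. EPRS, which belongs to both classes, was counted in neither, and TARSL2, a class II protein by its amino acid, was left out. Of the 11 genes of the multisynthetase complex, IARS and LARS passed, both higher, which is a smaller share than the 26.8% of all genes tested. The summed FPKM of the complex was 373 to 379 with siSRSF1-2 and 345 to 395 in blank cells, so these ranges overlapped.

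**Figure D2:**
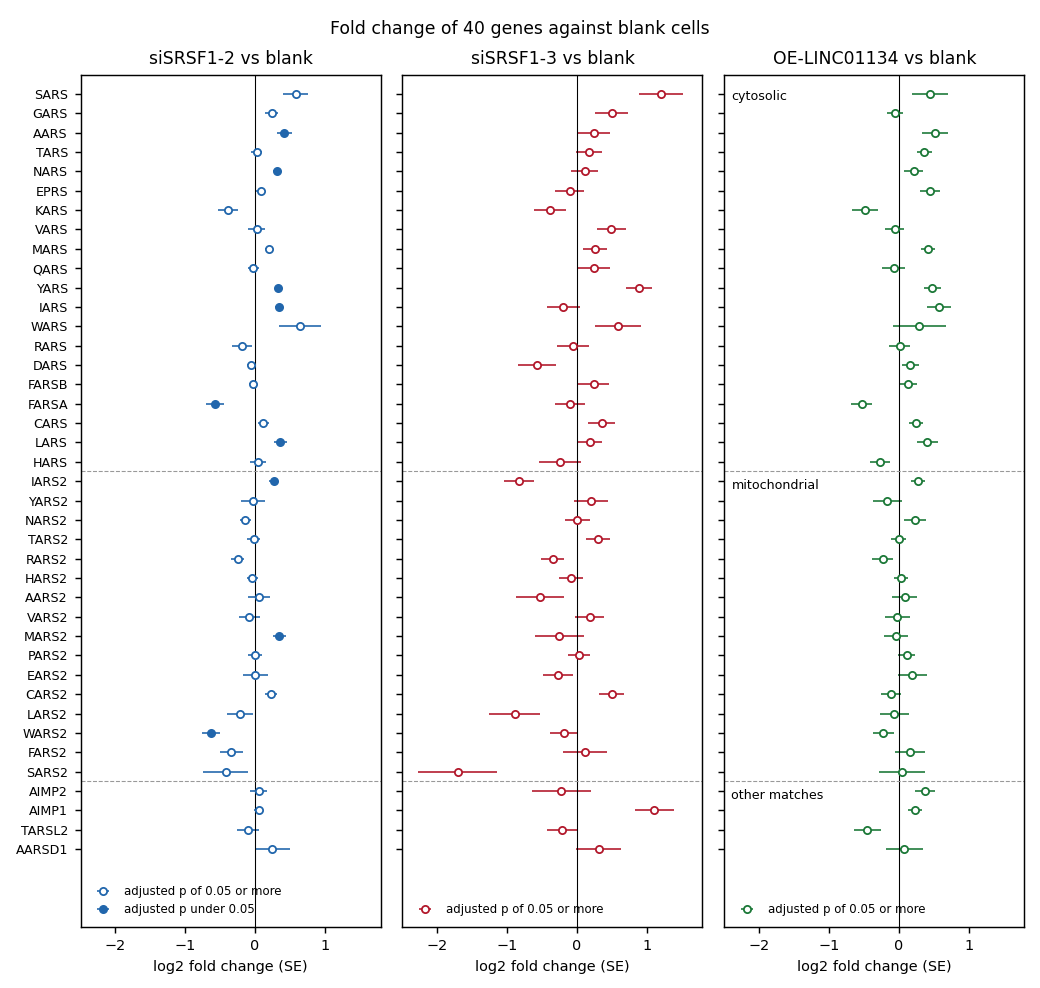
Log2 fold change against blank cells with its standard error (bars) for 40 of the genes in the 3 treatments, cytosolic enzymes at the top, mitochondrial enzymes in the middle and the other matches at the bottom, each in order of the blank level. Filled points passed an adjusted p under 0.05 (9 genes, all with siSRSF1-2), and the wider bars of siSRSF1-3 and OE-LINC01134 reflect the spread between their libraries.

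With siSRSF1-3, differences were larger for single genes, but so was the spread between libraries. IARS2 and SARS2 were among the lower genes and YARS, SARS and AIMP1 among the higher ones. None of the 41 genes passed an adjusted p under 0.05 in limma, beside 1.28% of all genes tested. At an unadjusted p under 0.05, 4 were higher and 4 lower, beside 15.2% and 13.6% of all genes. The voom fit on reads called 1, which was lower. The groups did not overlap for 9 higher and 8 lower genes, beside 19.2% and 18% of all genes.

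IARS2 was at 33.2, 29.7 and 30.1 FPKM in blank cells and at 13.9, 16.9 and 22.3 with siSRSF1-3, with no overlap, a log2 fold change of -0.83 (SE 0.216, adjusted p = 0.0866).

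SARS2 was at 1.05, 0.664 and 0.483 FPKM in blank cells and at 0.0474, 0.170 and 0.268 with siSRSF1-3, which correspond to 3 to 27 reads. Its log2 fold change was -1.71 (SE 0.567, adjusted p = 0.121), and at these counts its size is poorly determined. LARS2, for leucine, differed by -0.89 (SE 0.362, adjusted p = 0.163). CARS2, for cysteine, differed in the other direction, by 0.50 (SE 0.180, adjusted p = 0.136), with 3.81 to 4.43 FPKM in blank cells and 5.05 to 6.63 with siSRSF1-3. Its log2 fold change was 0.06 to 0.46 on the other scales, lowest with FPKM rescaled to the same sum.

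SARS was at 410.45, 299 and 246 FPKM with siSRSF1-3, above every blank library (99.7, 154 and 160.2). Its log2 fold change was 1.21 (SE 0.314, adjusted p = 0.0866). YARS, on chromosome 1 at 32775237 to 32818153, was at 88.8, 81.4 and 67.1 FPKM against 41.5, 42.7 and 43.1, a log2 fold change of 0.89 (SE 0.190, adjusted p = 0.0636). VARS (0.49, adjusted p = 0.174) and GARS (0.50, adjusted p = 0.196), for valine and glycine, and DARS (-0.57, adjusted p = 0.208) followed without passing. With FPKM rescaled to the same sum, which lowered the median of all genes, SARS was at 0.76, YARS at 0.44, VARS at 0.049, GARS at 0.051 and DARS at -1.01 on the log2 scale.

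AIMP1, which was named after its values were seen, was at 22.1, 21.8 and 23.8 FPKM in blank cells and at 67.1, 52.5 and 32.9 with siSRSF1-3. The log2 fold change was 1.11 (SE 0.278, adjusted p = 0.0819). Its partner AIMP2 was at 10.9 FPKM in siSRSF1-3 library 1 and at 32.9 and 30.6 in libraries 2 and 3, against 30.4, 23.0 and 24.8 in blank cells, so the libraries of the knockdown lay on both sides of the blank group. The third scaffold protein, EEF1E1, was at 31.2, 18.4 and 8.40 FPKM, against 9.12, 6.81 and 7.40 in blank cells, and overlapped (adjusted p = 0.160).

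The siSRSF1-3 libraries were at unequal distances from blank cells. Library 1 had the highest sum of FPKM. For SARS, YARS, AIMP1 and IARS2 it was furthest from blank cells and library 3 was nearest. The plot of single genes by library shows these values. Some other members did not follow this order. FARSA, in the same plot, was at 24.7, 24.9 and 18.5 FPKM, against 29.4, 21.7 and 22.0 in blank cells. AARS was at 67.8, 91.8 and 102 FPKM, against 61.6, 79.0 and 79.6. Over the cytosolic enzymes the median log2 difference from blank cells was 0.13, 0.17 and 0.23 by library, largest in library 3. IARS was at 28.9, 34.2 and 49.5 FPKM, below the blank libraries in libraries 1 and 2 and above them in library 3. Over the 20 cytosolic enzymes library 1 held the highest value of all 12 libraries for 8 genes and the lowest for 5. Over the 17 mitochondrial enzymes it held the highest for 3 and the lowest for 10. Over all genes tested this library also lay far from the other groups (SD of the log2 difference 1.37 to 1.55). The share of extremes over all genes was not counted, so these counts are no result about the enzymes.

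**Figure D3:**
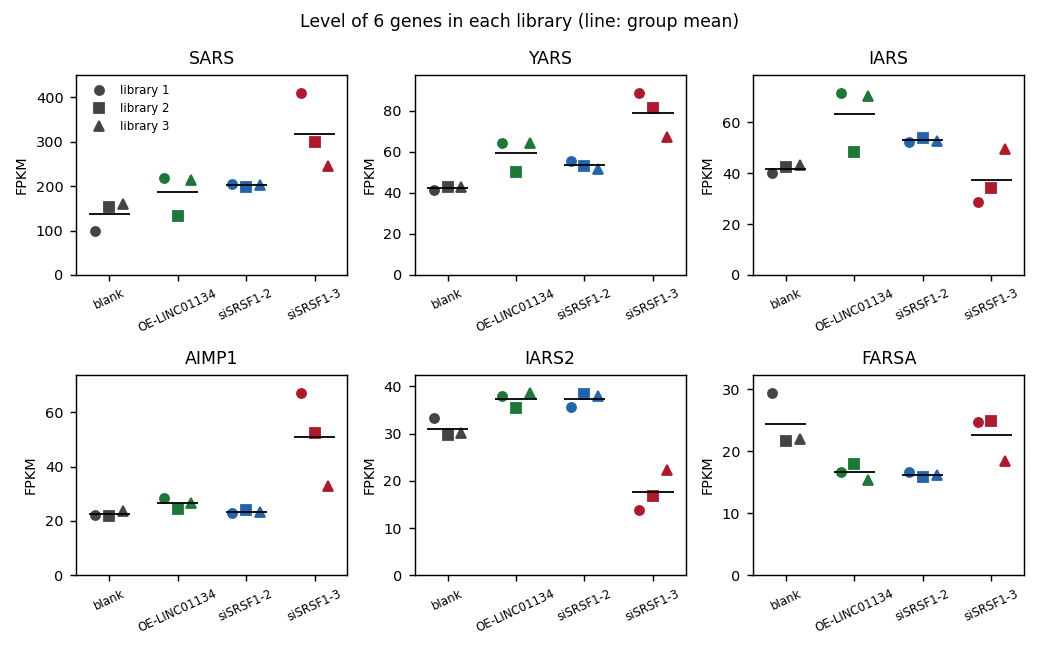
FPKM of SARS, YARS, IARS, AIMP1, IARS2 and FARSA in each of the 12 libraries, with the library number as the shape of the point and the group mean as a line. The siSRSF1-3 libraries spread from 410.45 to 246 FPKM for SARS and from 13.9 to 22.3 for IARS2, while the siSRSF1-2 libraries lie close together.

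Leaving out siSRSF1-3 library 3 gave 9 calls of 41, beside 35.9% of all genes tested. The higher genes were CARS, SARS, YARS, CARS2 and AIMP1 and the lower ones included DARS, IARS2 and SARS2, with log2 fold changes of 1.38 for SARS (adjusted p = 0.0199), 1.002 for YARS (adjusted p = 0.0117) and -1.01 for IARS2 (adjusted p = 0.0122). For SARS, YARS and IARS2 library 3 was the nearest of its group to blank cells, so leaving it out enlarged these differences by itself. These p-values therefore add no support for a change in these genes. Leaving out blank library 1 left 0 called, beside 0.165% of all genes tested.

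The median log2 fold change with siSRSF1-3 was 0.22 for cytosolic and -0.19 for mitochondrial enzymes, beside -0.01 for all genes tested. With libraries put on a scale set by their own reads, the median of all genes moved to -0.26 and that of the cytosolic enzymes to -0.04, below 0. Relative to the median of all genes, the cytosolic median was 0.23 on the deposited scale and between 0.20 and 0.22 on the other 3 scales, and the mitochondrial median was -0.18 on the deposited scale and between -0.20 and -0.18 on the others. On the deposited scale 13 of 20 cytosolic enzymes lay above the median of all genes and 7 of 17 mitochondrial enzymes did. Members that moved in opposite directions stand behind both medians, so neither describes a shift of the whole list.

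On the deposited scale the summed FPKM of the cytosolic enzymes was 1205 to 1410 with siSRSF1-3 and 932 to 1006 in blank cells. That of the mitochondrial enzymes was 105 to 125 against 126 to 155. These sums depend on the scale. All genes summed to 611084 and 410612 FPKM in siSRSF1-3 libraries 1 and 2, against 301921 to 324607 in blank cells. With FPKM rescaled to the same sum, the cytosolic median log2 fold change was -0.23. The ratio of the cytosolic to the mitochondrial sum does not depend on the scaling of a library. It was 13.5, 10.6 and 9.62 with siSRSF1-3, against 6.03, 7.77 and 7.87 in blank cells. With siSRSF1-2 it was 8.36, 8.21 and 8.20, and with LINC01134 overexpression 8.70, 7.09 and 8.56. SARS and GARS, the highest members, weigh most in the numerator, and IARS2 in the denominator. For isoleucine, the ratio of IARS to IARS2 was 2.11 ± 0.101 (SD, n = 3) with siSRSF1-3 against 1.36 ± 0.129 in blank cells. The lowest siSRSF1-3 library lay above the highest blank library for this pair, and for others such as LARS to LARS2 and VARS to VARS2. The mean ratio was lower than in blank cells for the CARS, FARSA, HARS and TARS pairs and for EPRS to PARS2. In the other pairs it was higher. The sum over the multisynthetase complex was 384 to 406 FPKM and overlapped the blank range. The plot of lists by library shows these values beside the list medians.

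**Figure D4:**
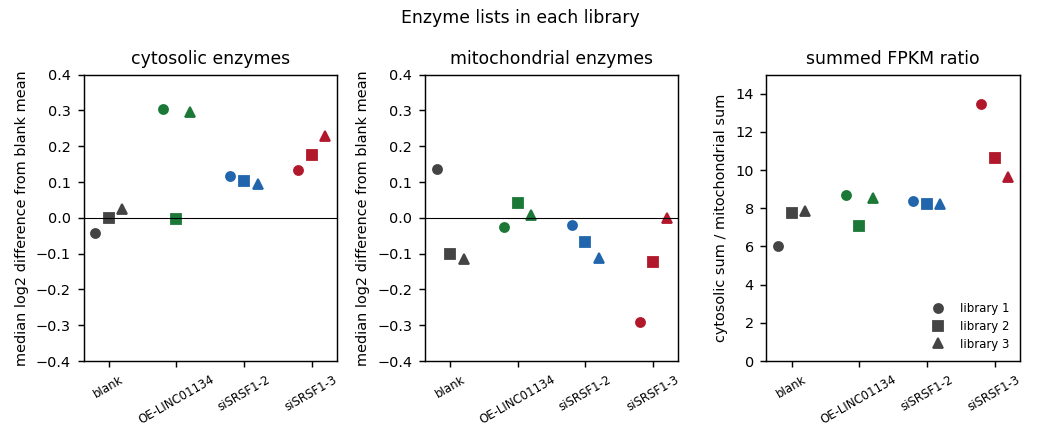
Median log2 difference of the cytosolic (left) and mitochondrial (middle) enzymes from their mean over blank libraries, and the ratio of their summed FPKM (right), 1 point per library. The ratio is 9.62 to 13.5 in the siSRSF1-3 libraries and 6.03 to 7.87 in blank cells, and the cytosolic median of OE-LINC01134 library 2 (-0.00) lies apart from 0.30 in the other libraries of its group.

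The siRNAs were also compared with each other, since both target SRSF1. None of the 41 genes passed an adjusted p under 0.05 in limma, beside 0.0855% of all genes tested, and voom also called 0. At an unadjusted p under 0.05, 7 were higher with siSRSF1-3 and 5 lower, beside 21.9% and 20.2% of all genes. The groups did not overlap for 12 higher and 8 lower genes, beside 27% and 27.6% of all genes. IARS2 had the smallest adjusted p, at 35.6, 38.4 and 37.96 FPKM with siSRSF1-2 against 13.9, 16.9 and 22.3 with siSRSF1-3. The groups were fully apart, with a log2 difference of -1.10 (SE 0.188, adjusted p = 0.0712).

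YARS differed by 0.55 (SE 0.148, adjusted p = 0.0801). VARS and FARSA each differed by 0.47 (adjusted p = 0.0834 and 0.0876), and WARS2 by 0.44 (adjusted p = 0.0968). With FPKM rescaled to the same sum, which moved the median of all genes by -0.55, the differences of YARS, VARS, FARSA and WARS2 turned below 0, while IARS2 and SARS2 kept their direction under every alternative. SARS2 differed by -1.29 (SE 0.475, adjusted p = 0.102). Without siSRSF1-3 library 3, which lay near the siSRSF1-2 libraries, 24 of 41 genes passed, 12 in each direction, beside 61.2% of all genes tested. A missed threshold in the full comparison does not show that the siRNAs act alike on these genes. For IARS2 the values with siSRSF1-2 lay above every blank library and those with siSRSF1-3 below.

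With LINC01134 overexpression, 14 of the 20 cytosolic enzymes lay above their blank mean in libraries 1 and 3 each and 10 in library 2. None of the 41 genes passed an adjusted p under 0.05 in limma, beside 1.18% of all genes tested, and voom also called 0. At an unadjusted p under 0.05, 9 were higher and 2 lower, beside 14% and 12.3% of all genes. The groups did not overlap for 10 higher and 4 lower genes, beside 16.8% and 13.8% of all genes. The median log2 fold change was 0.23 over cytosolic and -0.00 over mitochondrial enzymes, beside 0.05 over all genes tested. By library, the cytosolic median was 0.30, -0.00 and 0.30.

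MARS, for methionine, was at 50.8, 46.5 and 47.3 FPKM in blank cells and at 66.8, 58.6 and 68.5 with LINC01134, a log2 fold change of 0.42 (SE 0.104, adjusted p = 0.0821). YARS was at 64.4, 50.2 and 64.2 FPKM, above every blank library, with a log2 fold change of 0.48 (adjusted p = 0.0889). IARS was at 71.7, 48.2 and 70.5 FPKM, a log2 fold change of 0.58 (adjusted p = 0.103). In all 3 genes library 2 was the lowest of the group. DDIT3, which overlaps MARS, was at 112, 79.6 and 108 FPKM with LINC01134 and at 30.1, 114 and 108 in blank cells, so its groups overlapped.

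TARS, for threonine, differed by 0.36 (adjusted p = 0.106) and FARSA by -0.53 (adjusted p = 0.0987), with FARSA at 16.7, 18.02 and 15.4 FPKM below every blank library. Among the mitochondrial enzymes IARS2 was the nearest to the threshold, at 38.05, 35.4 and 38.6 FPKM and 0.27 above blank cells on the log2 scale (adjusted p = 0.153). RARS2 (-0.23, adjusted p = 0.369), NARS2 (0.23, adjusted p = 0.390), WARS2 (-0.22, adjusted p = 0.394) and EARS2 (0.20, adjusted p = 0.565) followed.

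Without OE-LINC01134 library 2, 10 of 41 genes passed, beside 25.5% of all genes tested. The 9 higher ones were AARS, EPRS, IARS, LARS, MARS, NARS, TARS, YARS and NARS2, and the lower one was RARS2. IARS was then 0.76 above blank cells (adjusted p = 0.0064) and EPRS 0.59 (adjusted p = 0.0108). For both genes library 2 was the lowest of its group, so leaving it out raised the difference and narrowed the spread by itself. These p-values therefore add no support for a change in either gene. Without blank library 1 instead, 3 passed, namely MARS, TARS and IARS2, beside 13.9% of all genes tested. Without both of these libraries, a choice made after seeing that they lay close together, 28 of 41 passed, 21 higher and 7 lower, beside 59.7% of all genes tested. They held all 20 cytosolic enzymes, 15 higher and 5 lower, and the cytosolic median was 0.22. The libraries kept lay close together within each group (SD of the log2 difference 0.454 in both). The choice itself thus narrowed the spread, so these counts are no result about the enzymes. The summed FPKM of the multisynthetase complex was 401 to 447 in the LINC01134 libraries, above the 345 to 395 of blank cells, and the groups did not overlap.

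Companion genes of the same pathway were described from lists of function. Of 14 genes of tRNA delivery and proofreading, 13 were tested, since EEF1G was listed at or near 0 in the table. With siSRSF1-2, 2 rose and 2 fell, near the 14% and 12.8% of all genes tested. EEF1A2, an elongation factor that brings charged tRNA to the ribosome, was at 91.2, 106.5 and 103 FPKM in blank cells and at 67.5, 65.1 and 62.9, a log2 fold change of -0.62 (adjusted p = 0.0038). SECISBP2, which serves selenocysteine incorporation, rose by 0.36 (adjusted p = 0.0117) and EEF1B2 fell by 0.30 on the log2 scale (adjusted p = 0.0121).

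Of 18 partners of mitochondrial translation, 2 rose and 3 fell with siSRSF1-2, also near 14% and 12.8% of all genes. GFM1, the mitochondrial elongation factor G, changed by 0.58 (adjusted p = 0.0070) and TUFM, which delivers charged tRNA in mitochondria, by -0.51 (adjusted p = 0.0119). MTRF1, a release factor, changed by 0.45 (adjusted p = 0.0136). The median was 0.01. In the other 3 comparisons no gene of either list passed in limma, and voom called only SECISBP2 and MRRF, both higher with LINC01134. At an unadjusted p under 0.05, the mitochondrial partners had 2 higher and 1 lower gene with siSRSF1-3, 4 and 1 with LINC01134, and 7 and 1 between the siRNAs. The genes of delivery had 4, 2 and 5 higher genes and 0 lower in the same comparisons. Over all genes the shares were 15.2% higher and 13.6% lower, 14% and 12.3%, and 21.9% and 20.2%.

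Of the 24 genes of the amino acid response, which is controlled by ATF4, 4 rose and 7 fell with siSRSF1-2, beside 14% and 12.8% of all genes tested, and the median was -0.01. SLC1A5, a glutamine transporter, was at 133, 126 and 125 FPKM in blank cells and at 70.4, 65.9 and 64.9, a log2 fold change of -0.93 (adjusted p = 0.00095). SLC7A11, the cystine transporter, was at 24.0, 19.8 and 19.6 FPKM and at 37.5, 41.2 and 42.0, a log2 fold change of 0.93 (adjusted p = 0.0028). DDIT4 changed by -1.36 (adjusted p = 0.0024), and ATF4 itself by -0.38 (adjusted p = 0.0050).

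In the other 3 comparisons none of the 24 passed in limma, while voom called DDIT4 (lower) and SLC3A2 (higher) with siSRSF1-3, ASNS (higher) with LINC01134 and SLC1A5 (higher) between the siRNAs. Between the siRNAs 12 stood higher and 2 lower with p left unadjusted, beside 21.9% and 20.2% of all genes tested. With siSRSF1-3 the median was 0.22, and at an unadjusted p under 0.05, 8 were higher and 3 lower, beside 15.2% and 13.6% of all genes. ATF4 was at 816, 579 and 381 FPKM there, above the blank libraries (296 to 311), with a log2 fold change of 0.90 (adjusted p = 0.150). DDIT4 differed by -2.02 (adjusted p = 0.0610), SLC3A2 by 1.25 (adjusted p = 0.0621) and PPP1R15A by 2.20 (adjusted p = 0.0772).

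With LINC01134 the median of the amino acid response was 0.39. Of its genes 8 were higher and 0 lower when p was left unadjusted (under 0.05), beside 14% and 12.3% of all genes tested. ASNS, asparagine synthetase, was at 18.7, 10.5 and 17.8 FPKM against 5.77, 6.66 and 5.46 in blank cells, fully apart, with a log2 fold change of 1.34 (SE 0.233, adjusted p = 0.0513). MTHFD2 differed by 0.53 (adjusted p = 0.0513) and CEBPG by 0.57 (adjusted p = 0.0634). By library the median of this list was 0.48, 0.33 and 0.48, and that of the cytosolic enzymes 0.30, -0.00 and 0.30. Whether both lists differ in this respect was not tested.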

How the data were processed

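RNA-Seq was analysed in 12 U2OS libraries, 3 in each of 4 groups taken from the sample titles. The authors deposited FPKM per gene with gene lengths and coordinates. Aligner, counting program and strand setting are not given in the sources used here, and the human genome build is likewise not given in the sources used here. The labels and the supplementary methods name different library kits, and the latter mention fewer replicates than the libraries analysed here. The deposited FPKM times gene length gave whole reads for 100% of values above 0 (tolerance 0.01 read), so reads per gene were recovered and fitted with limma's voom as an alternative. Libraries held 26237763 to 32954539 reads on genes.

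Values of log2(FPKM + 0.1) were fitted for each pair of groups with limma 3.58.1 (lmFit, eBayes with trend, R 4.3.3) over the 17538 genes whose FPKM averaged 0.5 or more across the libraries, with Benjamini-Hochberg adjustment over all of them. A gene was called at an adjusted p under 0.05. Medians of lists are descriptions. The fit was tested on simulated data. Genes were named by fixed rules: the 3 highest and lowest enzymes of each set in blank cells, up to 5 enzymes of each set and up to 3 companion genes per list with the smallest adjusted p, and pair ratios. Others were named after their values were seen. Members and lists were chosen with earlier results of these data known. YARS2 was kept with the mitochondrial enzymes because its name ends in 2 and the enzyme is mitochondrial, and AIMP2 and TARSL2 were not. Alternatives were other pseudocounts, scalings, filters, fits and libraries left out. No nucleotide or protein sequence is shown, since no human reference was used here. The values of 1 of the genes are not reported here, and it stays in the counts and medians of its list.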

Additional observations from a re-analysis of the deposited data

How the results depend on the processing

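Of the 41 genes, 9 were called with siSRSF1-2 against blank cells. The number was 3 with no filter on low values (4.75% of all genes) and 5 with eBayes without trend (24.8%). It was 0 in a single fit over all 4 groups (3.76%) and 0 at an absolute log2 fold change over 1 (4.95%). With the siSRSF1-2 libraries averaged it was 0, but 0% of all genes passed there, so this says nothing about the members. An unadjusted p gave 16 (40.3%), and leaving out 1 library gave 0 to 22 (10.4% to 52.2%). For the comparisons with 0 calls, the single fit called 10 with siSRSF1-3 and 7 between the siRNAs (27.8% and 32.3% of all genes). Voom called 1 with siSRSF1-3 (3.92% of all genes). An unadjusted p gave 8 with siSRSF1-3, 11 with LINC01134 and 12 between the siRNAs, beside 28.8%, 26.3% and 42.1% of all genes. Leaving out 1 library gave 0 to 9, 0 to 10 and 0 to 24, beside up to 35.9%, 25.5% and 61.2%. Leaving out blank library 1 and OE-LINC01134 library 2 together gave 28, beside 59.7%. The cause of these changes was not tested. The fits with libraries left out also had fewer samples.

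The labels give replicate numbers and do not say whether same-numbered libraries shared a batch. Deviations of same-numbered libraries did not go together (correlations between -0.08 and 0.04), which cannot show whether a batch was present. With the replicate block 4 genes were called with siSRSF1-2, beside 14.1% of all genes, and 0 in the other comparisons, beside at most 0.0228%.

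Medians moved with the scaling. With libraries put on a scale set by their own reads, the cytosolic median was 0.15 for siSRSF1-2, -0.044 for siSRSF1-3 and -0.21 between the siRNAs, and the mitochondrial median -0.44 for siSRSF1-3 and -0.35 between the siRNAs. With FPKM rescaled to the same sum, the cytosolic medians were 0.23, -0.23 and -0.48, and the mitochondrial medians 0.10, -0.62 and -0.62. With voom the cytosolic median was 0.16 for siSRSF1-3 and 0.072 between the siRNAs. Leaving out 1 library gave cytosolic medians of 0.088 to 0.15 for siSRSF1-2, 0.14 to 0.23 for siSRSF1-3 and 0.052 to 0.12 between the siRNAs. The mitochondrial medians were -0.13 to -0.0076 for siSRSF1-2, lowest without blank library 2, and -0.30 to -0.084 for siSRSF1-3, lowest without blank library 2 and highest without blank library 1.

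The change of SRSF1 kept its direction throughout. With siSRSF1-2 averaged it was -1.72 and no longer passed (adjusted p = 0.280 in limma). With siSRSF1-3 it passed at -1.92 with a pseudocount of 1, at -2.09 in the single fit, at -2.12 with voom and at -2.33 without siSRSF1-3 library 3, and leaving out 1 library gave -2.33 to -1.72.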
